A study of Mus musculus with 6 samples.

Results

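The 10 genes Csf1r, Adgre1, Cd68, C1qa, C1qb, C1qc, Mrc1, Cx3cr1, Fcer1g and Lyve1, which are widely used to mark tissue macrophages, were followed in E15.5 mouse ovaries. They were picked by name as macrophage genes, and the counts of every transcript with one of these names were summed per gene. They are 10 of 35976 gene names and comprise 20 of 114412 transcripts of the deposited count matrix. Strand-specific polyA RNA-seq was performed on pooled ovaries of C57BL/6J embryos, with 3 control pools and 3 PB pools. The mothers of the PB group had been gavaged with panobinostat (PB), which blocks histone deacetylases, at 5 mg/kg on alternate days from E6.5 to E15.5, and the mothers of the control group DMSO and water alone. In the sample annotation this dose is stated per day. The size of a pool is given as 4 ovaries in the extraction protocol, as 6 to 8 in the design text and as a minimum of 8 in the RNA-seq methods. The sources name the pools biological replicates without saying that each came from a litter of its own, so the p-values below measure the spread between these pools, part of which may be technical. The design text describes the libraries of both groups as libraries of exposed mice, and the groups were therefore taken from the sample names and the treatment annotation.

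The pools held between 97165644 and 125985399 counts. PB 2 stood apart from the other pools, with a chi-square per gene of 228 to 362 against each of them, whereas the pairs of the other pools gave 70.2 to 199. Values of the macrophage genes that moved by over 1.5 times or changed sign without it are given beside the result. The transcriptome of the whole ovary was measured, so fewer macrophages and less RNA per macrophage cannot be told apart.

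Macrophages enter the fetal gonad from the yolk sac and later from the fetal liver, reside around the vessels and between the germ cells and somatic cells, and engulf dying cells. Their survival depends on the receptor encoded by Csf1r, which binds the cytokines CSF1 and IL34. They are a main source of C1q, the hexameric recognition part of the first complement component, whose 3 chains are encoded by C1qa, C1qb and C1qc.

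All 10 genes were detected in all 6 pools, with 128 to 2509 counts per gene and pool. Together they amounted to 0.0082% to 0.0102% of the library size of a pool after normalization (TMM). Of the 28 other macrophage genes examined alongside, all had counts and 27 were abundant enough to be tested. The gene not tested was Cd163, which had 0 counts in control 3 and PB 1. The label of macrophage genes rests on the gene names, and the cells that held these transcripts were not determined. No member passed the test between control and PB. By the edgeR quasi-likelihood test with Benjamini-Hochberg adjustment over 19437 genes, 0 of 10 were called (2-fold or more with an FDR up to 0.05), where 0.0154% of all genes were called, and the adjusted p-values lay between 0.888 and 0.99. At an unadjusted p under 0.05, edgeR again gave 0 of 10, with 4.47% of all genes passing. DESeq2 also called 0 of 10 (0.0536% of all genes) and gave 0 of 10 at an unadjusted p under 0.05 (3.64% of all genes). On the log2 scale, 6 members had a fold change below 0 and 4 above 0, and the median was -0.071, beside a median of 0.002 and quartiles of -0.10 and 0.10 over all genes.

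**Figure D1:**
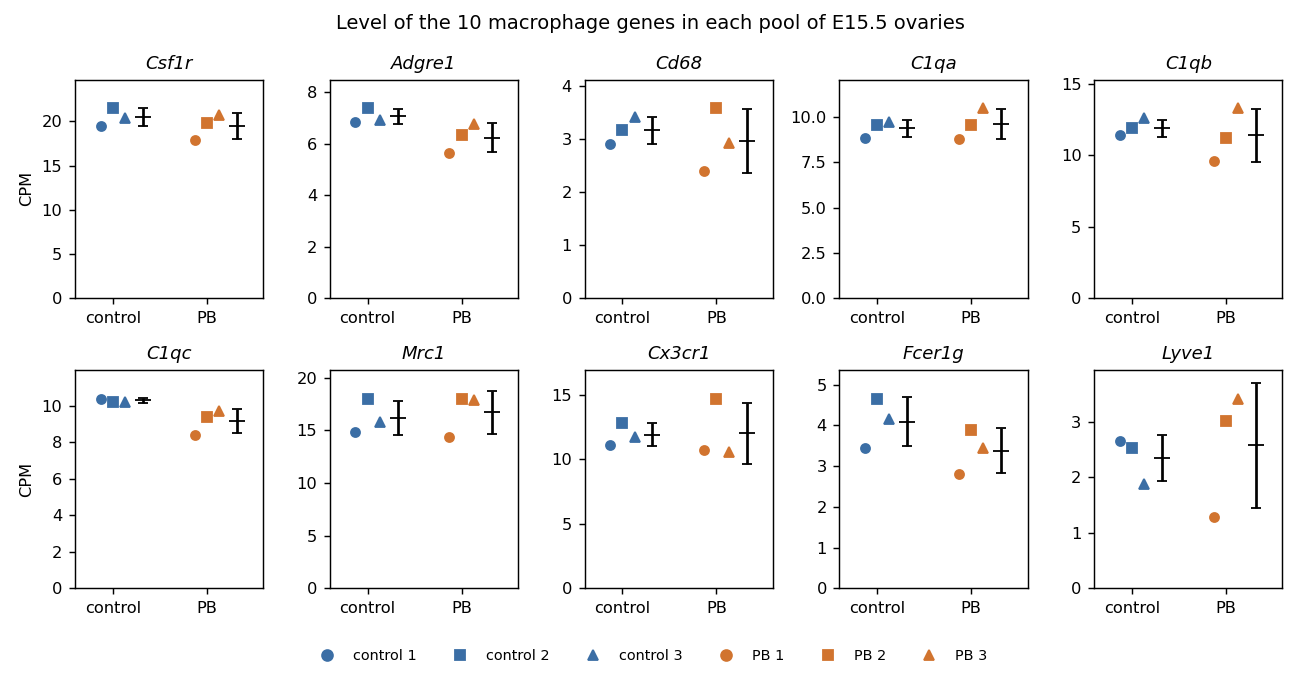
Level of each macrophage gene in CPM (counts scaled to library size, vertical axis from 0) in the 3 control and 3 PB pools. Symbols are single pools, and the bars beside them give the mean and SD of each group (n = 3). The groups overlapped in 8 of the 10 genes, and PB 1 (orange circle) was the lowest pool in 9 of them.

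Levels of the members were compared with each other as TPM, which scales counts to transcript length and depth. Levels of one gene between pools were compared as CPM, which scales counts to library size alone. Within the gene lists further below, genes are ranked by mean CPM, which takes no account of transcript length. C1qb was the highest, with a mean of 16.7 TPM over the 6 pools (14.7 to 20.2), followed by C1qc at 14 TPM (12.9 to 14.9) and C1qa at 13.3 TPM (12.1 to 15.6). The ranges of these 3 neighbours overlapped, although C1qb was above C1qc in 6 of 6 pools. Fcer1g (8.55 TPM) and Csf1r (7.66 TPM) formed the next step and overlapped with each other. They were followed by Cx3cr1 (4.81 TPM), Mrc1 (4.69 TPM), Cd68 (3.81 TPM) and Adgre1 (3.14 TPM), each overlapping with its neighbour. Lyve1 was the lowest at 1.43 TPM (0.801 to 2.11). Only 3 steps in this order separated neighbouring ranges, namely C1qa from Fcer1g, Csf1r from Cx3cr1 and Adgre1 from Lyve1.

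The receptors were examined first. Csf1r, the receptor on which macrophages depend, is located at chr18:61096809-61131139 of mm10 on the plus strand. Its level was 19.5, 21.5 and 20.4 CPM in control 1, 2 and 3 and 17.9, 19.8 and 20.7 CPM in PB 1, 2 and 3. The groups overlapped, and PB 1 was the lowest pool. The log2 fold change was -0.074 ± 0.077 (SE), with a 95% interval of -0.26 to 0.11, which spans 0.836-fold to 1.08-fold. This was the narrowest interval of the 10 genes.

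Cx3cr1, the receptor for the chemokine fractalkine, is located at chr9:120048683-120068296 on the minus strand. It was measured at 11.1, 12.8 and 11.7 CPM in control and at 10.7, 14.7 and 10.6 CPM in PB. PB 2 was above every other pool and PB 1 and PB 3 were below all control pools, so that the PB pools lay on both sides of the control pools. The log2 fold change was 0.016 ± 0.15 (SE; 95% interval -0.33 to 0.36), and it was -0.16 without PB 2.

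Adgre1, the gene of the F4/80 antigen by which mouse macrophages are commonly stained, is located at chr17:57358651-57483529 on the plus strand. Its level was 6.86, 7.38 and 6.93 CPM in control and 5.63, 6.32 and 6.77 CPM in PB. All PB pools were below all control pools, and PB 3 was close to the lowest control pool. The log2 fold change of -0.18 ± 0.10 (SE) had a 95% interval of -0.42 to 0.066. Adgre1 and C1qc were the 2 members of 10 whose groups did not overlap in CPM, both with PB lower. In all genes tested, the groups were separated in this direction in 5.62% and in the opposite direction in 5.1%, in which 0 members were found. As TPM, the groups of Adgre1 overlapped, with 3.13, 3.16 and 3.31 in control and 2.92, 2.99 and 3.35 in PB.

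Fcer1g encodes the common gamma chain that signals for several Fc receptors and is also used by mast cells, natural killer cells and platelets. It is located at chr1:171229572-171234349 on the minus strand. It was measured at 3.45, 4.66 and 4.15 CPM in control and at 2.8, 3.89 and 3.44 CPM in PB. The pools of the groups were interleaved, with PB 1 lowest and control 2 highest. The log2 fold change of -0.27 ± 0.17 (SE) was the lowest of the members, and its 95% interval of -0.69 to 0.14 spans 0.619-fold to 1.1-fold. Its size rested on single pools, being -0.16 without PB 1, -0.17 without control 2 and -0.39 without PB 2.

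The endocytic and lysosomal members were next. Mrc1, the mannose receptor CD206, is located at chr2:14229414-14332023 on the plus strand. Its level was 14.8, 18 and 15.8 CPM in control and 14.4, 18 and 17.9 CPM in PB, so that both groups held low and high pools, and its log2 fold change was 0.05 ± 0.12 (SE; 95% interval -0.23 to 0.33). Without PB 2 it was -0.0034.

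Cd68, a heavily glycosylated protein of macrophage lysosomes and endosomes, is located at chr11:69664213-69666170 on the minus strand. It was measured at 2.91, 3.16 and 3.42 CPM in control and at 2.39, 3.58 and 2.92 CPM in PB. The highest and the lowest pool were both PB pools. A log2 fold change of -0.094 ± 0.18 (SE; 95% interval -0.51 to 0.33) was obtained. It moved to -0.25 without PB 2 and to 0.033 without PB 1.

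Lyve1, a hyaluronan receptor of perivascular macrophages and of lymphatic endothelium, is located at chr7:110850607-110862953 on the minus strand. Its level was 2.65, 2.53 and 1.88 CPM in control and 1.29, 3.02 and 3.42 CPM in PB. The PB pools again enclosed the control pools. The coefficient of variation within the PB group was 44%, beside 17.6% within control. Under a Poisson model, counting error was smaller than this spread. The 128 counts of PB 1 have a 95% Poisson interval of 1.08 to 1.53 CPM and the 398 counts of PB 3 one of 3.1 to 3.78 CPM. These intervals cover counting error only and may be too narrow, since the counts were derived from the coverage of paired reads. The log2 fold change was 0.13 ± 0.36 (SE), and its 95% interval of -0.73 to 1.00 reached from 0.601-fold to 2-fold. Without PB 1 it was 0.45, without PB 2 it was 0.0052, without PB 3 it was -0.13 and without control 3 it was -0.011.

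**Figure D2:**
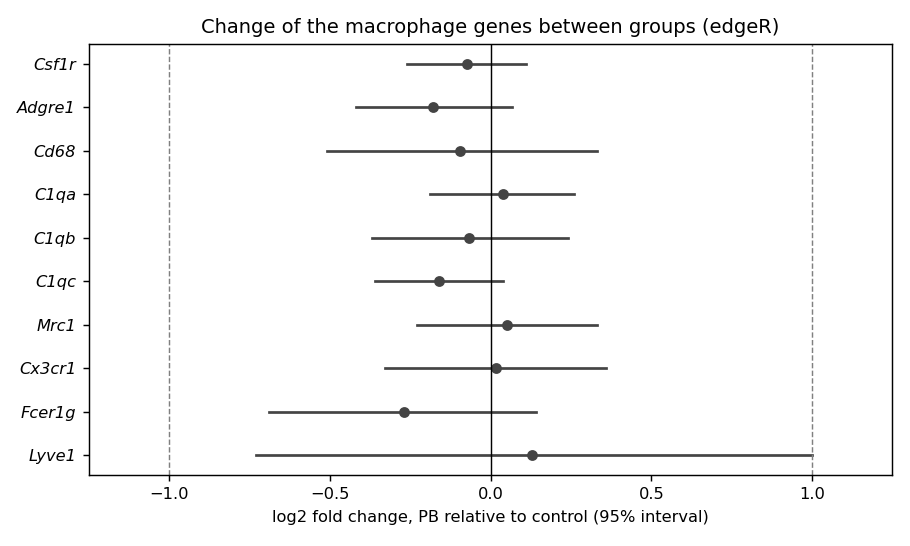
Log2 fold change of each macrophage gene in PB relative to control (points) with its 95% interval (lines), from edgeR on 3 against 3 pools. The solid vertical line marks no change and the dashed lines a 2-fold change. All 10 intervals hold 0, and that of Lyve1 reaches from -0.73 to 1.00.

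The 3 C1q genes lie side by side on chromosome 4 and are transcribed from the minus strand, in the order C1qb (chr4:136880145-136886177), C1qc (chr4:136889802-136892932) and C1qa (chr4:136895916-136898844). C1qa was measured at 8.86, 9.55 and 9.72 CPM in control and at 8.8, 9.55 and 10.5 CPM in PB, with a log2 fold change of 0.037 ± 0.094 (SE; 95% interval -0.19 to 0.26). C1qb was measured at 11.4, 11.9 and 12.6 CPM in control and at 9.62, 11.2 and 13.3 CPM in PB, with a log2 fold change of -0.068 ± 0.13 (SE; 95% interval -0.37 to 0.24). In both genes the PB pools spread to either side of the control pools, with PB 1 lowest and PB 3 highest. C1qc was measured at 10.4, 10.2 and 10.2 CPM in control and at 8.43, 9.39 and 9.72 CPM in PB, so that all PB pools were below the tightly grouped control pools. As TPM, its groups overlapped, with 14.7, 13.2 and 14.7 in control and 12.9, 13.5 and 14.9 in PB. Its log2 fold change was -0.16 ± 0.083 (SE; 95% interval -0.36 to 0.039), and the unadjusted edgeR p of 0.0991 was the smallest of the 10 members.

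Since the 3 chains assemble in equal numbers, the ratios of the TPM values within a pool were compared. The ratio of C1qc to C1qa was 1.21, 1.09 and 1.08 in control and 0.983, 1.02 and 0.954 in PB. All PB pools were below all control pools, and the exact two-sided permutation test gave p = 0.1, the smallest value that 3 against 3 pools allow (0.3 after Benjamini-Hochberg adjustment over 3 ratios). The ratio of C1qa to C1qb was 0.765, 0.788 and 0.76 in control and 0.898, 0.837 and 0.773 in PB, where the groups overlapped (exact permutation p = 0.2, adjusted 0.3). The ratio of C1qc to C1qb was 0.869 ± 0.0564 in control and 0.824 ± 0.0768 in PB (SD, n = 3, exact permutation p = 0.5, adjusted 0.5).

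**Figure D3:**
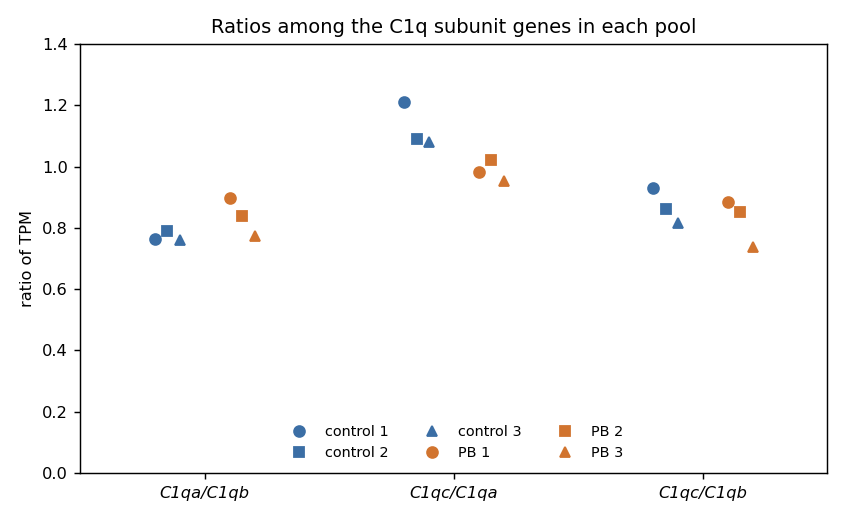
Ratios of the TPM values of the C1q subunit genes in each pool (vertical axis from 0). Blue symbols are control pools and orange symbols PB pools. In the ratio of C1qc to C1qa the control pools lay between 1.08 and 1.21 and the PB pools between 0.954 and 1.02.

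The 250 bases before the RefSeq start (GRCm38.p6, the mm10 assembly) were read for the 6 members that the promoter table matched, namely C1qb, C1qc, Cd68, Cx3cr1, Fcer1g and Mrc1. They were searched on both strands for AGGAAGT, a core bound by the macrophage factor PU.1 and shared with other ETS factors. This motif was chosen after several had been counted. It was found in 3 of the 6 member promoters and in 7.69% of 32851 mouse promoters of the same length, each time as its reverse complement ACTTCCT. The TATA box TATAAA was found in 0 of 6 and in 12.4% of all promoters. The 3 promoters with the motif are shown to place it, 5′ to 3′ on the strand of the gene, with the motif in capitals. Counted from the start, it begins at position -53 in C1qb, at -195 in C1qc and at -211 in Mrc1. The C1qb stretch is chr4:136886201-136886450 and the C1qc stretch chr4:136892933-136893164, both on the minus strand, and the Mrc1 stretch is chr2:14229164-14229413 on the plus strand. The last 18 bases before the start of C1qc are left out because a second C1qc transcript covers them.
C1qb: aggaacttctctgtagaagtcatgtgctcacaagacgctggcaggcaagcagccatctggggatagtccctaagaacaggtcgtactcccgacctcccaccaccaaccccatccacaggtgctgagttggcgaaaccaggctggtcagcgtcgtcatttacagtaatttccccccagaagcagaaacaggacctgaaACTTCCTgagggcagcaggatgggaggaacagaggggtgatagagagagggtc
C1qc: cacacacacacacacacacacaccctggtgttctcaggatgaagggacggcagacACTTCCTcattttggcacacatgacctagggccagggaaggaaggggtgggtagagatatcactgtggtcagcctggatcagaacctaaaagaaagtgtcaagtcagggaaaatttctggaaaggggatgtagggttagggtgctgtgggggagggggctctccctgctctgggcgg
Mrc1: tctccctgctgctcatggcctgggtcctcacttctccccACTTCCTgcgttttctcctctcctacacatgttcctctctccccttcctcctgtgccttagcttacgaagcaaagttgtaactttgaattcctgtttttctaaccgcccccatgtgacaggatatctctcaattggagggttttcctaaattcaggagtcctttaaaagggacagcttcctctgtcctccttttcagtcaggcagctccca
C1qb and C1qc, which share the motif and the locus, had log2 fold changes of -0.068 and -0.16, and Mrc1 one of 0.05. A match describes these letters only and is no evidence of binding in these ovaries.

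In CPM, the members shared a pattern across the pools. PB 1 was the lowest pool in 9 of 10 members, Cx3cr1 being the exception with PB 3 lowest, and all 10 members were below their own mean there. Averaged over the members, the log2 level of PB 1 was 0.29 below the mean of the 6 pools (-0.29). Control 2 was above the mean in 10 of 10 members (0.11 on average). The other pools were within this range, with averages of -0.023 in control 1, 0.027 in control 3, 0.10 in PB 2 and 0.079 in PB 3. The pattern depended on the scaling. As TPM, PB 1 was lowest in Adgre1, Cd68, C1qb, C1qc, Fcer1g and Lyve1 but not in Csf1r, C1qa, Mrc1 and Cx3cr1. Control 2 was then above the mean in Adgre1 and Fcer1g alone. The share of all genes with PB 1 lowest was not determined. The SD of the log2 level over the pools had a median of 0.15 in the members (0.091 to 0.49), beside a median of 0.15 in all genes tested.

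The summed level of the 10 genes was 91.9, 102 and 96.7 CPM in control and 82, 99.4 and 99.3 CPM in PB. The group means were 96.7 ± 4.86 CPM and 93.6 ± 10 CPM (SD, n = 3), a log2 ratio of -0.048 (exact two-sided permutation p = 0.8, with 0.1 the smallest possible). PB 2 and PB 3 were thus inside the range of the control pools and PB 1 was below it. Without PB 1 the log2 ratio was 0.038, without PB 2 it was -0.094, and without Lyve1 and Fcer1g, which other cell types also express, it was -0.044. The precision of the comparison is given by the intervals of the genes, of which 10 of 10 held 0, 9 of 10 were within a 2-fold change in either direction, Lyve1 being the exception, and 8 of 10 were within a 1.5-fold change.

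**Figure D4:**
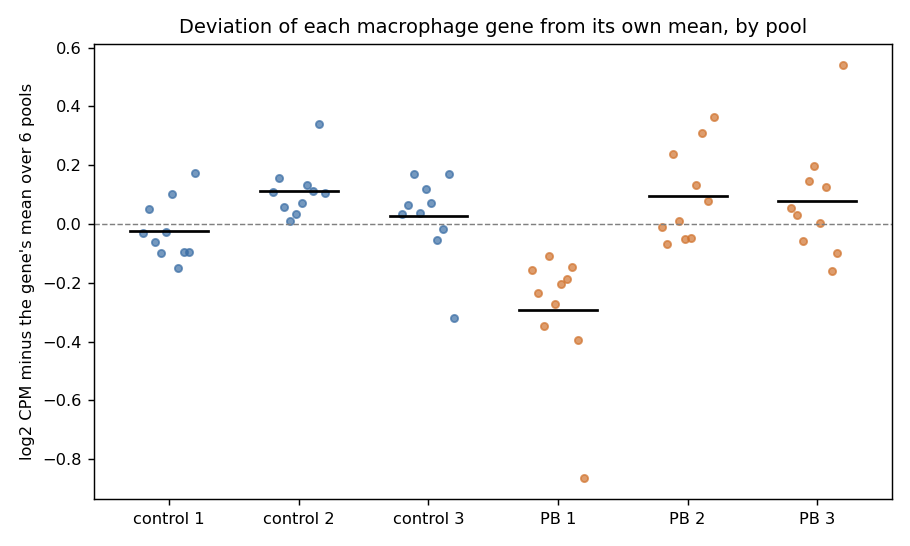
Log2 CPM of each of the 10 macrophage genes minus the mean of that gene over the 6 pools (points), with the average over the genes (black lines). All 10 genes were below 0 in PB 1, with an average of -0.29, and above 0 in control 2, with an average of 0.11.

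The genes whose centred log2 CPM over the 6 pools was most like the average profile of the members, by the root mean square difference among 14769 genes with a mean of at least 1 CPM, included Gm5454 (0.034), Tfb2m (0.036), Rabepk (0.04) and Sprr2a2 (0.044). With 6 pools and a profile led by PB 1, such likeness is a description of these libraries. Of the other macrophage genes, picked here after their ranks were seen, Stab1 ranked at 12 (0.055) and Ctss at 23 (0.061), whereas Lyz2 (0.47) and Csf2rb (0.48) were the least alike of those ranked. Among the members themselves, Csf1r was nearest to the average of the other 9 (0.079) and Lyve1 farthest (0.40).

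The transcripts of the members were tested as deposited. Of 20 listed transcripts, 18 had counts and 13 were tested, and edgeR called 0 of 13 (0.0332% of all 51227 transcripts) and gave 0 of 13 at an unadjusted p under 0.05 (3.56% of all). DESeq2 called 0 of the 14 member transcripts to which it gave an adjusted p (1.84% of all). Of the 15 to which it gave a p-value, 1 had an unadjusted p under 0.05 (7.17% of all). This was C1qc NM_007574.2, with an unadjusted DESeq2 p of 0.0443 and an adjusted p of 0.573, and a log2 fold change of -0.21 ± 0.14 (SE) in edgeR. C1qa, C1qb, Mrc1, Fcer1g and Lyve1 have 1 transcript each, and of Cx3cr1 only NM_009987.4 had counts.

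StringTie divides the reads of a gene among its transcripts, and this division differed between pools of one group. Of Csf1r, XM_017317810.1 held 95.7% of the counts over all pools, with 99.9%, 99.8% and 79.3% in control and 99.9%, 93.6% and 99.7% in PB. In control 3, 337 counts (17.5%) were assigned to NM_001037859.2, which had at most 1 count in every other pool. In PB 2, 123 counts (6.09%) were assigned to XM_006525585.3, which starts upstream of the others, while PB 3 had 4 counts and the other pools 0. Of Adgre1, NM_010130.4 held 100%, 93% and 69.2% in control and 70.8%, 64.2% and 100% in PB. The remainder was assigned to XM_006523602.1, with up to 29.2% in PB 1, and to XM_006523601.1, with 23.9% in control 3 and 23.7% in PB 2. The shares thus differed as much within the groups as between them. NM_001291058.1 held 95.2% of the counts of Cd68, and NR_110993.1 had counts in control 1, control 2 and PB 1 alone (9.79%, 10.1% and 11.4%). NM_007574.2 held 94.2% of those of C1qc. No exon of a member overlapped an exon of another gene in the deposited annotation.

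The ligands and regulators of the members were examined next, from lists of genes with known roles. EdgeR called 0 of the 140 tested genes of these 16 lists, and DESeq2 called 1, Gp1bb. Below, counts at an unadjusted p under 0.05 are given for the genes lower in PB (2.43% of all genes) and higher in PB (2.03% of all genes). The 2 CSF1R ligands and 10 macrophage transcription factors were all tested, with 0 lower, 1 higher and a median log2 fold change of 0.053. The higher gene was Runx1, a factor of blood cell development (0.15, 68, 70.1 and 67.7 CPM in control and 79, 78.3 and 71.1 CPM in PB), which like other such genes below is named after its value was seen. Maf, the highest of them in mean CPM, was measured at 152, 151 and 135 CPM in control and at 141, 173 and 134 CPM in PB. Spi1, the gene of PU.1, had the lowest log2 fold change (-0.16, 95% interval -0.61 to 0.29) and Zeb2 the highest (0.19, 95% interval -0.12 to 0.50). Several genes of this list are also expressed by other ovarian cells.

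Of the 18 complement genes that act with C1q, such as its proteases, later components and receptors, 17 were tested. At an unadjusted p under 0.05, 0 were lower and 0 higher, and the median log2 fold change was -0.043. Calr, an abundant chaperone that also binds C1q, averaged 576 ± 13.1 CPM in the control pools and 578 ± 17.2 CPM in the PB pools (SD, n = 3). The extremes of the list were scarce genes, C1s2 with a log2 fold change of 1.36 (95% interval -0.31 to 3.02) and C4b with -1.38 (95% interval -4.56 to 1.80).

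Fcer1g signals with Fc receptors and the kinase encoded by Syk. Of 19 genes of these receptors and their ITAM signalling, 16 were tested, 12 with a log2 fold change below 0 and a median of -0.23. At an unadjusted p under 0.05, 3 were lower and 0 higher. Syk itself averaged 24.6 ± 1.02 CPM in the control pools and 24.9 ± 1.62 CPM in the PB pools (SD, n = 3). Fgr, a Src family kinase of myeloid cells, had the lowest log2 fold change (-1.30, 95% interval -2.21 to -0.38). The 3 lower genes were Fgr, Plcg2 and Ptpn6, the latter pair being named after their values were seen. Ptpn6, the gene of the phosphatase SHP-1 that dampens this signalling, was measured at 9, 9.7 and 9.15 CPM in control and at 6.64, 7.2 and 6.64 CPM in PB. Its groups did not overlap, and its log2 fold change of -0.44 ± 0.082 (SE) had an adjusted p of 0.888 in edgeR. In DESeq2 it was -0.45 with an adjusted p of 0.0153, below the 2-fold change of a call, and the adjusted p was 0.141 to 1 in the other alternatives. Fcer1a, the alpha chain of the IgE receptor with which Fcer1g pairs in mast cells, had 0 counts in all 6 pools, which allows a level of up to 3 counts per pool (0.0257 to 0.0319 CPM).

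The next list held 8 gene names, of the CX3CR1 ligand and of the synthesis and breakdown of hyaluronan, the ligand of LYVE1. Of these names, 7 were present in the count matrix, the absent Cemip2 being another symbol of Tmem2, and 6 were tested. At an unadjusted p under 0.05, 0 were lower and 0 higher, and the median log2 fold change was -0.034. Hyal2, a hyaluronidase, was the highest in mean CPM (64.8 ± 2.39 CPM in control and 60.5 ± 2.85 CPM in PB, SD, n = 3). Has3, a hyaluronan synthase, had the highest log2 fold change (0.07) and Tmem2, a hyaluronidase of the cell surface, the lowest (-0.13).

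The 28 other macrophage genes gave 2 lower (Lyz2 and Csf2rb) and 0 higher at an unadjusted p under 0.05, with 21 of 27 log2 fold changes below 0 and a median of -0.17. Their summed level was 172 to 218 CPM in control and 150 to 180 CPM in PB, with PB 1 again lowest and control 2 highest. In which cells the genes of this list were expressed was not determined. Stab1, a scavenger receptor and the highest of them in mean CPM, was measured at 35.8, 39.5 and 38.2 CPM in control and at 27.7, 36.9 and 36.2 CPM in PB. Aif1, the gene of IBA1, had the highest log2 fold change (0.14, 95% interval -0.40 to 0.69). Lyz2, a lysozyme that neutrophils also produce, had the lowest (-0.79, 95% interval -1.53 to -0.045), with 14.6, 36.7 and 23.7 CPM in control and 13, 15.9 and 14.6 CPM in PB. Without control 2 it was -0.40.

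Markers of other blood cells had other patterns across the pools. The 9 neutrophil genes summed to 49.7, 203 and 111 CPM in control and to 59.9, 60.4 and 29.7 CPM in PB, a 6.85-fold range that exceeds the 1.24-fold range of the members. Of 8 tested, 5 were lower (S100a9, Ngp, Camp, Ltf and Retnlg) and 0 higher at an unadjusted p under 0.05, with a median log2 fold change of -1.54. S100a9, the highest in mean CPM, was measured at 10.3, 52.1 and 23.9 CPM in control and at 12.4, 13.6 and 7.99 CPM in PB. Retnlg had the lowest log2 fold change (-2.97) and Mpo, made by precursors, the highest (0.29). Without control 2, the value for S100a9 was -0.59 and that for Retnlg -1.64. Control 2 is also the pool with the highest summed CPM of the members, although as TPM only Fcer1g was highest there. The part of neutrophil or other myeloid cells in the levels of Fcer1g and Lyz2 was not tested.

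The 5 monocyte genes summed to 10.6 to 13.1 CPM in control and to 10.1 to 11.3 CPM in PB, with 2 lower (Ly6c2 and Chil3) and 0 higher at an unadjusted p under 0.05 and a median log2 fold change of -0.60. Plac8 was the highest in mean CPM (8.56 CPM in control and 8.13 CPM in PB), Ccr2 the highest in log2 fold change (0.23) and Chil3 the lowest (-2.48). Chil3 was measured at 0.122, 1.63 and 0.68 CPM in control, and without control 2 its value was -1.45 and that of Ccr2 0.46, while Ccr2 was at 0.068 without control 1. The 7 mast cell and basophil genes, of which 6 were tested, summed to 31.1 to 72.7 CPM in control and to 28 to 56.3 CPM in PB, with 0 lower and 0 higher. Cpa3, a protease of mast cell granules, averaged 20 ± 7.48 CPM in the control pools and 19.4 ± 6.24 CPM in the PB pools (SD, n = 3), and Mcpt8 had the lowest log2 fold change (-1.28, 95% interval -3.64 to 1.08), which turned to 0.24 without control 2. The part of mast cells in the level of Fcer1g was not tested.

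Of the 10 genes of MHC class II and dendritic cells, 6 were tested, with 0 lower and 1 higher (H2-Aa) at an unadjusted p under 0.05. H2-Ab1 was measured at 12.2, 12.1 and 11.3 CPM in control and at 17.1, 8.79 and 20.4 CPM in PB. H2-Aa had the highest log2 fold change (1.04) at a level of 0.219 CPM in control and 0.454 CPM in PB, and Flt3 the lowest (-1.27). Of the 8 lymphoid genes, 4 were tested, with 0 lower and 0 higher. Rag1 averaged 1.79 CPM in the control pools and 1.94 CPM in the PB pools, and Cd3e had a log2 fold change of 1.42 (95% interval -0.65 to 3.48). Their summed level of 2.23 to 3.13 CPM over the 6 pools was far below that of the macrophage genes.

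The 6 platelet and megakaryocyte genes gave 2 lower (Ppbp and Itga2b) and 1 higher (Gp1bb) at an unadjusted p under 0.05. Ppbp had the lowest log2 fold change (-1.66) and Gp1bb the highest. Gp1bb was measured at 2.43, 1.9 and 3.68 CPM in control and at 12.1, 19.5 and 18.1 CPM in PB, a log2 fold change of 2.63 ± 0.29 (SE) with an adjusted p of 0.14 in edgeR. DESeq2 called it, and with known transcripts only the log2 fold change was 0.84. The other 5 genes of the list had log2 fold changes below 0, and the median of the list was -0.35.

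The 5 lymphatic endothelial genes, with which Lyve1 is shared as a marker, summed to 90.2 to 99 CPM in control and to 90.7 to 102 CPM in PB, with 0 lower and 0 higher at an unadjusted p under 0.05. Prox1, the defining transcription factor, was measured at 5.13, 3.61 and 4.35 CPM in control and at 5.1, 5.32 and 5.48 CPM in PB (log2 fold change 0.28, 95% interval -0.068 to 0.63). Flt4, a receptor of lymphatic growth factors, had the lowest log2 fold change (-0.19), with 13.6, 12.3 and 15.1 CPM in control and 10, 13.6 and 12.4 CPM in PB. In PB 1, where Lyve1 was at its lowest, Flt4 was also at its lowest, while Prox1, Pdpn, Ccl21a and Reln were not. The part of lymphatic endothelium in the level of Lyve1 was not tested. Of this list, Pdpn was the highest in mean CPM (60.4 CPM in control and 63.6 CPM in PB), so that it made up most of the summed level. The 8 blood endothelial genes gave 1 lower, Tie1 (-0.24, 95% interval -0.46 to -0.023), and 0 higher, while Kdr averaged 114 ± 3.72 CPM in the control pools and 119 ± 7.65 CPM in the PB pools (SD, n = 3) and Stab2 had the highest log2 fold change (0.29).

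Red cells and the 2 main ovarian lineages were used as a frame. The 9 red cell genes summed to 15082 to 31983 CPM in control and to 18397 to 20141 CPM in PB, with 1 lower (Hba-a2, -0.77) and 0 higher. Hbb-bs, the highest in mean CPM, averaged 9090 ± 3742 CPM in the control pools and 7556 ± 456 CPM in the PB pools (SD, n = 3). Hba-a1 had the highest log2 fold change (-0.09). The near-identical globin copies share reads, so their single values are uncertain. The 6 germ cell genes summed to 821, 619 and 807 CPM in control and to 909, 533 and 976 CPM in PB, with 0 lower and 0 higher. Dazl averaged 267 ± 48.8 CPM in the control pools and 266 ± 65.2 CPM in the PB pools, Sycp3 had the highest log2 fold change (0.34) and Stra8 the lowest (-0.082). Without PB 2, Sycp3 was at 0.63 with an adjusted edgeR p of 0.0214, below a 2-fold change, and without PB 3 it was at 0.14. The 6 pregranulosa genes gave 0 lower and 0 higher and summed to 716 to 769 CPM in control and to 680 to 759 CPM in PB, with Wnt4 at 229 CPM and 217 CPM (log2 fold change -0.081) and Lgr5 at 0.049 in log2 fold change. The germ cell sum was lowest in PB 2 and control 2, pools in which the macrophage genes were among the highest (99.4 and 102 CPM), and highest in PB 3 and PB 1, in which they were at 99.3 and 82 CPM. The part of this makeup of the pools in the macrophage levels was not tested.

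**Figure D5:**
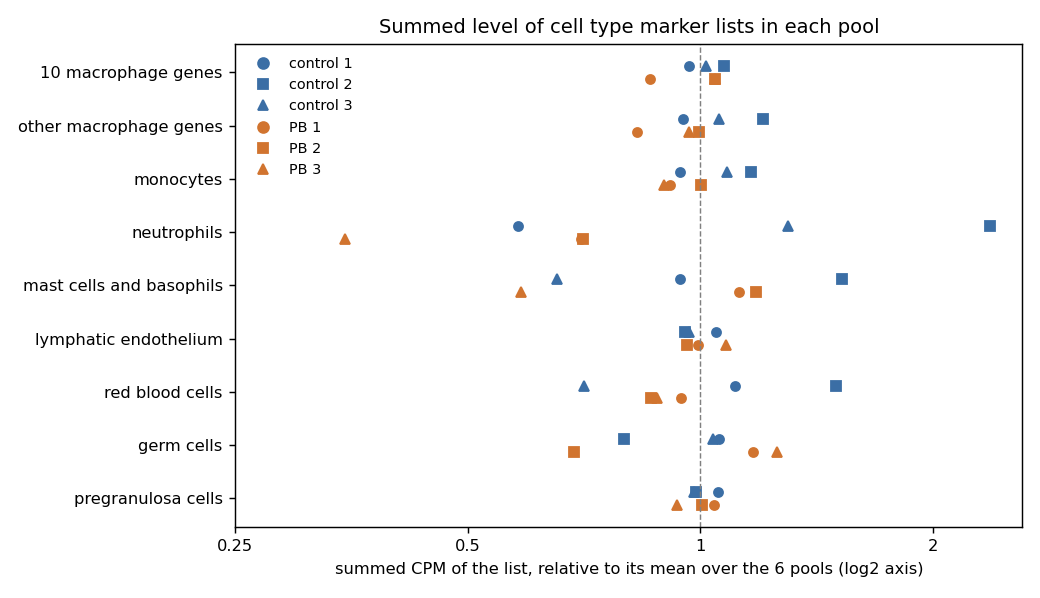
Summed CPM of each marker list in each pool, divided by its mean over the 6 pools (log2 axis). Blue symbols are control pools and orange symbols PB pools, and near-equal pools cover each other. The 10 macrophage genes spanned 1.24-fold, the neutrophil genes 6.85-fold with control 2 highest, and the germ cell genes 1.83-fold with PB 2 lowest.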

How the data were processed

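RNA-seq libraries of 3 control and 3 PB pools of E15.5 ovaries were grouped by their names and treatment annotation. The authors used HISAT2 2.1.0 for alignment to mm10 and StringTie 1.3.5 with RefSeq for assembly and merging, and deposited whole-number prepDE counts per transcript, derived from coverage, without normalization. The deposited table of their DESeq2 1.30.0 comparison also holds fold changes, standard errors, p-values and 6 columns of normalized values, none of which was used. It gave the gene names, and the deposited annotation gave positions and exon lengths. A total of 1490 transcripts (3.05% to 4.49% of a pool's counts) had no gene name and did not enter the gene sums.

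Counts per gene and per transcript of the whole table were compared by edgeR 4.0.16 under R 4.3.3 (TMM, filterByExpr keeping features by a minimum count of 10 and total of 15, quasi-likelihood F-test, Benjamini-Hochberg adjustment), and called when changed 2-fold or more with an FDR up to 0.05. The standard error is the log2 fold change divided by the square root of F. CPM use TMM library sizes and TPM divide counts by exon length. A count of 0 allows up to 3 counts. Sequences are from RefSeq (GRCm38.p6). Proteins and the promoters of the other 4 members were not used here. All members are named, and of each list the gene with the highest mean CPM and those with the highest and lowest log2 fold change. Other names were chosen after values were seen. Some genes that this rule would name are not reported here. The members and lists were chosen with earlier results of these data known. Alternatives were other size factors, DESeq2 1.42.0, other filters, a replicate block, known transcripts only and each pool left out. No sequencing batch is named in the sources.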

Additional observations from a re-analysis of the deposited data

How the results depend on the processing

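The call of 0 of 10 members was the same under the 12 alternatives run for each gene, with adjusted p-values of 0.448 to 1, and so was that of the member transcripts under those run for transcripts. The median log2 fold change of the members was -0.077 to -0.071 under the other fits and -0.12 to 0.033 with 1 pool left out (highest without PB 1), and the summed log2 ratio -0.077 to -0.044 and -0.094 to 0.038. The summed ratio was taken in CPM alone. As TPM, without TMM scaling, the means of Csf1r (7.56 in control and 7.76 in PB) and C1qb (16.4 and 16.9) were higher in PB. The means of the other members differed in the direction of their log2 fold changes. DESeq2 called 1 listed gene, Gp1bb (log2 fold change 2.63), where edgeR called 0.

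The shared replicate numbers of the groups name no common litter or day, and the deviations of same-numbered pools correlated at 0.093, 0.147 and -0.018, so the numbers were not taken to pair the pools. With a replicate block, 0 members were called, the members' median was -0.077, the calls over all genes went from 3 to 0 and those over all transcripts from 17 to 0. Without PB 2, the genes with an unadjusted p under 0.05 went from 868 to 2442, and the calls from 3 to 9.

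Log2 fold changes changed sign when 1 pool was left out, over -0.25 to 0.033 for Cd68, -0.031 to 0.091 for C1qa, -0.20 to 0.034 for C1qb, -0.013 to 0.14 for Mrc1, -0.16 to 0.10 for Cx3cr1 and -0.13 to 0.45 for Lyve1. Of the listed genes this held for Aif1 (-0.081 to 0.31), Maf (-0.083 to 0.10), Spi1 (-0.27 to 0.033), Calr (-0.019 to 0.021), Syk (-0.016 to 0.073), Has3 (-0.11 to 0.24), Mpo (-0.44 to 0.62), Cpa3 (-0.28 to 0.27), Mcpt8 (-1.77 to 0.24), Rag1 (-0.081 to 0.32), Hbb-bs (-0.52 to 0.09), Hba-a1 (-0.50 to 0.35), Dazl (-0.15 to 0.19), Stra8 (-0.32 to 0.16) and Lgr5 (-0.025 to 0.14). Calr was at -0.00037 with no filter, and Hba-a1 at 0.14 with the replicate block. With known transcripts only, Stab2 was at -0.10, Hbb-bs at 0.016 and Hba-a1 at 0.10. The causes were not tested.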
